A study of Caenorhabditis elegans with 6 samples.

Results

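Ubiquinone, or coenzyme Q, is the lipid-soluble quinone that carries electrons from complexes I and II to complex III in the inner mitochondrial membrane. Its polyprenyl tail comes from the mevalonate pathway, its ring comes from aromatic amino acids, and the COQ enzymes join and then modify the ring by methylation and hydroxylation. VK2, or menaquinone, is itself a quinone with a polyprenyl tail, and many bacteria use it as an electron carrier. The genes of ubiquinone synthesis described here were chosen by symbol as *coq-1*, *coq-2*, *coq-3*, *coq-4*, *coq-5*, *coq-6*, *clk-1*, and *coq-8*. All 8 were found in both deposited tables, and all 8 were among the 14191 genes tested, out of 15207 genes listed in both tables. In *C. elegans*, loss of *clk-1* is known for slow development, a long life, and a build-up of the precursor demethoxyubiquinone.

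The worms were adults of N2, the wild-type strain, kept from young adulthood on NGM plates at 20°C for 7 days and moved daily to fresh plates so that offspring were left behind. The treated group received 0.1 μM VK2 and the control group received none, and whole bodies were collected for RNA-seq, with 3 libraries per group. The VK2 libraries are named T1, T2, and T3 and the control libraries C1, C2, and C3. The labels do not say whether the libraries of a group came from separate cultures, so the p-values measure only the spread between these libraries, which may be technical.

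Levels are given in FPKM, fragments normalised to the length of a transcript and to the mapped fragments of a library, summed over the transcripts that a table lists for a gene. C1 and T1 are in the first table and the other 4 libraries in the second. The FPKM of a library summed to between 654910 and 686279 in the first table but to between 369349 and 396004 in the second, so levels were compared only within a table. The read depth of the libraries is unknown. Marker lists of intestine, body wall muscle, neurons, hypodermis, and germline were listed in full in both tables, as the label of whole body calls for, together with 5 of 6 sperm markers and 6 of 8 embryo markers. The embryo marker *end-1* was listed at 0 in at least 1 library. C3 stood apart in its germline markers, whose summed FPKM was 526 in C3 against 1303 in C2, 1040 in T2, and 1051 in T3. C3 was also the lowest library of its table in embryo markers, at 160 against 274 to 314, and in sperm markers, at 31.1 against 50.1 to 58.3. With VK2, 8 of 9 germline, 5 of 5 embryo, and 3 of 3 sperm markers tested had a fitted difference above 0. Their medians were 0.27, 0.32, and 0.77 on the log2 scale, beside 0.02 over all genes. Of these markers, 2 sperm markers had an unadjusted p below 0.05 in limma, and none had an adjusted p below 0.05. Over all genes, 7822 of 14191 were above 0. So were 6 of 7 intestine, 4 of 5 body wall muscle, 3 of 5 hypodermis, and 1 of 6 neuron markers. In the pair of T2 and C2, the sums of germline and embryo markers were lower with VK2, and that of sperm markers was higher. In such bulk samples, fewer cells of a type and less RNA per cell cannot be told apart.

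The ubiquinone synthesis genes were expressed at moderate levels in every library. In every pair of libraries, the summed FPKM of a member with VK2 was between 0.790 and 1.33 times that of its control. For *coq-3*, the sum in the second table includes non-coding transcripts, as described below. Its coding transcripts alone fell outside this range in both pairs of that table. They were at 8.44 in C2 against 6.16 in T2, while T3, at 9.47, was above C3, at 6.26. By summed FPKM, the members ranked between the percentiles 52.2 and 80.4 of all genes tested in the first table. In the second table they ranked between 48.8 and 78.2. *coq-5*, which encodes the C-methyltransferase of the ring, was the highest of the 8 in both tables. Its FPKM was 60.1 in C1 and 59.7 in T1, and in the second table it was 29.4 in C2 and 26.0 in C3, against 25.7 in T2 and 27.8 in T3. These values did not overlap with those of any other member. *coq-8* and *coq-1* came next in the second table, with ranges of 21.4 to 24.1 and 19.4 to 22.4 that overlapped each other. *coq-3*, at 16.6 to 22.7, overlapped with both and also with *clk-1* and *coq-6*. *clk-1*, at 17.2 to 18.8, overlapped with *coq-6* at 15.4 to 18.2. *coq-4* and *coq-2* were the lowest there, at 10.01 to 12.09 and 8.42 to 11.2, and overlapped each other but no other member.

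**Figure D1:**
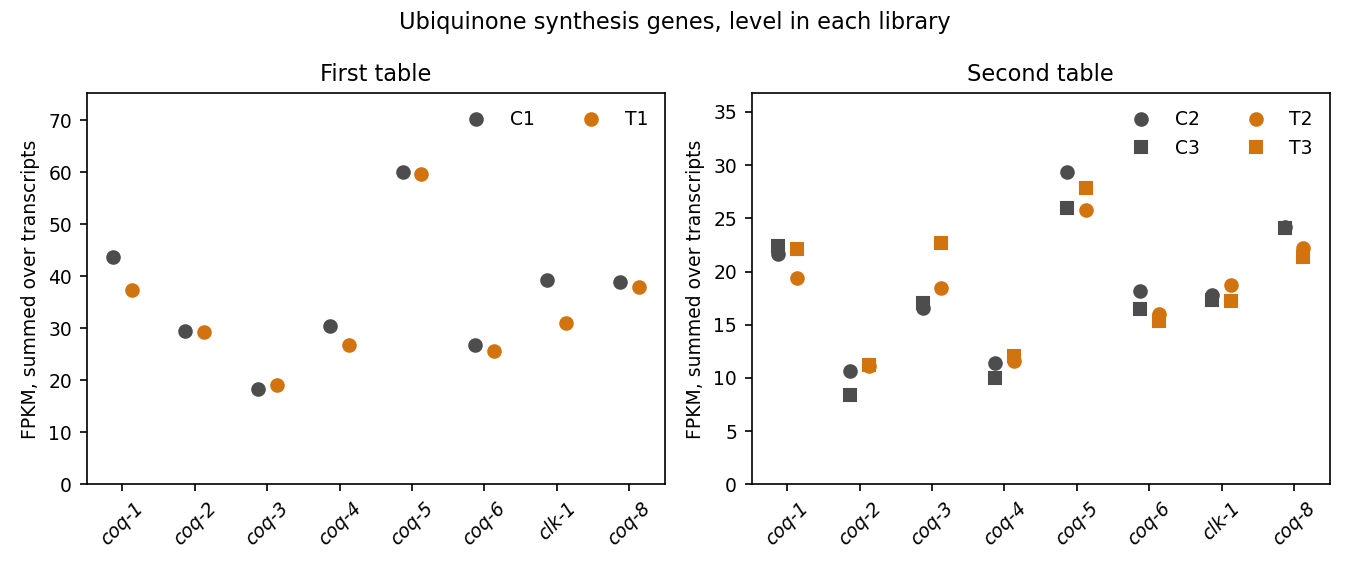
FPKM summed over the transcripts of each of the 8 ubiquinone synthesis genes (vertical axis, from 0) in the libraries of the first table (left) and of the second (right), with control libraries in grey and VK2 libraries in orange. *coq-5* is the highest in both panels. The VK2 value of a pair lies between 0.790 times its control, for *clk-1* in the first table, and 1.33 times, for *coq-3* in T3 against C3.

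The comparison of VK2-treated with control worms asked whether the treatment was accompanied by a change in these transcripts. No member passed an adjusted p below 0.05 in limma after Benjamini-Hochberg adjustment, where 0 of the 14191 genes tested did (0%), and none of the 8 had an unadjusted p below 0.05, against 3.57% of all genes. The fitted difference did not reach 1.5 times in either direction for any of the 8, against 3.33% of all genes that were higher and 1.68% that were lower by as much. By sign alone, the fitted difference was above 0 for 3 members and below 0 for 5, against 7822 and 6369 of all genes tested. The median over the 8 was -0.06 on the log2(FPKM + 1) scale, beside 0.02 over all genes tested. For genes with low FPKM, the pseudocount of 1 makes such differences smaller than the change itself.

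The 95% interval of the difference lay within 1.5 times in both directions for all 8 members, against 44.7% of all genes tested and 60.9% of the 3445 genes with a mean FPKM in the members' range. This count was made after the fitted differences had been seen, and it depended on the libraries and the model. It was 3 of 8 without C1, without T1, or without T3, 2 of 8 without T2, and 6 of 8 without C2, where between 9.42% and 27.9% of all genes met it. Without the table term it was 0 of 8, and with the replicate block it was 7 of 8, with *coq-3* outside. The standard error of the members had a median of 0.15, against 0.20 over all genes. The interval reached farthest up for *coq-3*, from -0.18 to 0.58, and farthest down for *coq-1*, from -0.47 to 0.21. Differences within these bounds could not be told from 0 in these libraries.

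**Figure D2:**
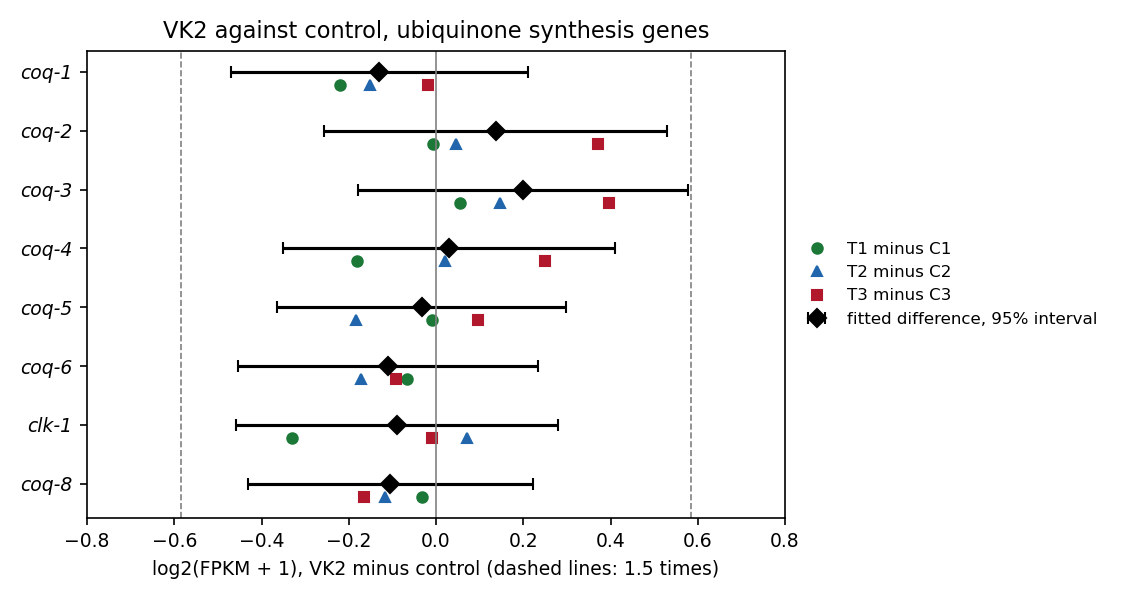
Difference between VK2-treated and control worms on the log2(FPKM + 1) scale (horizontal axis) for each gene, with the limma estimate and its 95% interval as a black diamond and bar and the change in each pair of libraries as coloured points. All 8 bars include 0 and lie between the dashed lines at 1.5 times.

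The side chain is built and attached by *coq-1*, which encodes the polyprenyl diphosphate synthase, and *coq-2*, which encodes the prenyltransferase that joins chain and ring. *coq-1* (WBGene00000761, chromosome I, 5412841 to 5415629 in WBcel235) was at 43.7 FPKM in C1 against 37.4 in T1, 21.7 in C2 against 19.4 in T2, and 22.4 in C3 against 22.1 in T3. It was lower with VK2 in every pair, but T3 was above C2, so the groups overlapped in the second table. Its fitted log2 difference was -0.13 (standard error 0.14), and with 1 library left out it was between -0.19, without T3, and -0.085, without C1 or T1. *coq-2* (WBGene00000762, chromosome III, 6935967 to 6939443) was at 29.5 FPKM in C1 against 29.3 in T1, 10.7 in C2 against 11.1 in T2, and 8.42 in C3 against 11.2 in T3. Only C3 was clearly below the other libraries of its table. The log2 difference of *coq-2* was 0.14, with a standard error of 0.17, but 0.03 when C3 was left out and 0.21 when C1, T1, or C2 was left out.

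The ring is then methylated by the products of *coq-3*, the O-methyltransferase, and *coq-5*. *coq-3* (WBGene00000763, chromosome IV, 14793119 to 14796375) was at 18.4 FPKM in C1 against 19.1 in T1, 16.6 in C2 against 18.5 in T2, and 17.0 in C3 against 22.7 in T3. It was the only member that was higher with VK2 in all 3 pairs, as were 10.8% of all genes, and its fitted difference was 0.20 (standard error 0.16), the largest of the 8 with all libraries in the fit. The value was 0.097 without T3, where *coq-1* at -0.19 and *coq-2* at 0.11 were larger in size, and 0.27 without C1 or T1. In the second table, however, its sum includes 2 transcripts of type ncRNA that the first table does not list, as described below. *coq-5* (WBGene00000765, chromosome III, 7857315 to 7858457), with the values given above, differed by -0.03 on the log2 scale (standard error 0.14). Its sign turned to 0.02 without C2 and to 0.0014 without T2.

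Hydroxylation of the ring depends on *coq-6*, which in yeast encodes a flavin-dependent monooxygenase, and on *clk-1*, the ortholog of human COQ7, which hydroxylates demethoxyubiquinone. *clk-1* (WBGene00000536, chromosome III, 5277894 to 5279344) was at 39.3 FPKM in C1 against 31.1 in T1. In the second table, it was at 17.8 in C2 against 18.8 in T2, and at 17.3 in C3 against 17.2 in T3. T1 was thus below C1 to 0.790 of its level, while the 4 libraries of the second table differed by at most 1.09 times, the smallest spread among the members. The log2 difference of *clk-1* was -0.09, with a standard error of 0.16, but 0.03 when C1 or T1 was left out. *coq-6* (WBGene00000766, chromosome V, 9336762 to 9338858) was at 26.8 FPKM in C1 against 25.5 in T1, 18.2 in C2 against 16.0 in T2, and 16.5 in C3 against 15.4 in T3. It was lower with VK2 in all 3 pairs, and its log2 difference was -0.11, with a standard error of 0.15, but -0.066 when C2 was left out.

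The remaining members act on the complex of COQ enzymes. *coq-4* encodes a protein that belongs to this complex in yeast, and *coq-8* encodes an atypical kinase, the ortholog of yeast Coq8 and human COQ8A. *coq-8* (WBGene00000767, chromosome III, 4863427 to 4866949) was at 38.9 FPKM in C1 against 37.96 in T1, 24.1 in C2 against 22.2 in T2, and 24.1 in C3 against 21.4 in T3. VK2 libraries were below controls throughout, but only to between 0.888 and 0.977 of the paired control, and the log2 difference was -0.10 (standard error 0.14). *coq-4* (WBGene00000764, chromosome I, 3869214 to 3870114) was at 30.4 FPKM in C1 against 26.7 in T1, 11.4 in C2 against 11.6 in T2, and 10.01 in C3 against 12.09 in T3. It was lower with VK2 in the first pair and higher in the others. Its log2 difference was 0.03 (standard error 0.16), which became -0.05 without C3 and -0.02 without T3.

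In all, *coq-1*, *coq-6*, and *coq-8* were lower with VK2 in all 3 pairs, which is 3 of 8, where 9.32% of all genes were. In the second table, both VK2 libraries were above both controls for *coq-2*, *coq-3*, and *coq-4*, as for 11% of all genes, and below both for *coq-6* and *coq-8*, as for 13.9% of all genes. None of these differences had an unadjusted p below 0.05 in limma. For *coq-3*, this order holds for the sum that includes non-coding transcripts. Its coding transcripts alone did not follow it, since T2, at 6.16, was below C2, at 8.44, and C3, at 6.26. *coq-2* and *coq-4* were lowest in C3, the library with the low germline, embryo, and sperm markers, and the part of these cells in this was not tested. An interaction term in limma compared the VK2 effect of the second table with that of the first, and its smallest adjusted p over the 8 members was 1.00. With the mean of each table removed, 18 of the 28 pairs of members had a positive Pearson's r over the 6 libraries, with a median of 0.18. The values ranged from -0.92 for *coq-3* and *coq-8* to 0.83 for *coq-6* and *coq-8*, and each rests on 6 libraries that all genes share. Every r of *coq-3* uses its sum with the non-coding transcripts of the second table. The r of its coding transcripts alone was not calculated.

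The genes whose pattern was most like the mean of the members, over the same 6 libraries, were *Y39A1A.14*, *Y22D7AR.10*, and *K09C4.10*, each with an r of 0.999. They are the best of 14183 other genes over few libraries, so a high r is no sign of a relation. *Y39A1A.14* was at 43.1 FPKM in C1 against 36.1 in T1, 14.5 in C2 against 13.4 in T2, and 12.3 in C3 against 14.7 in T3.

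Over C2, C3, T2, and T3, the highest FPKM of a member was between 1.09 and 1.37 times the lowest, with a median of 1.17. The 1.37 belongs to *coq-3*, whose sum in this table includes non-coding transcripts. Its coding transcripts alone had a wider ratio, from 6.16 in T2 to 9.47 in T3. Over all genes tested that were at 0 in none of these libraries, the median was 1.54, and over genes with a mean FPKM in the members' range it was 1.44. Of the 14108 genes at 0 in none of these libraries, 9.07% had a ratio at or below the median of the members, and 33.5% had one at or below that of *coq-3*, the highest of the members. The controls C2 and C3 showed the same contrast. The SD over genes of their log2 difference was 0.69 for all genes tested but 0.12 for the 8 members, while that of T2 and T3 was 0.29 and 0.13. For genes with a mean FPKM in the members' range, these SDs were 0.58 and 0.21. An SD over genes does not show a shift that the genes share. The mean of the members on the log2 scale, centred within the table, was 0.03 in C2 and -0.06 in C3. Thus the summed FPKM of most members was close in C3 and C2, although C3 differed widely from C2 in other genes. The member farthest apart was *coq-2*, at 10.7 in C2 and 8.42 in C3.

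**Figure D3:**
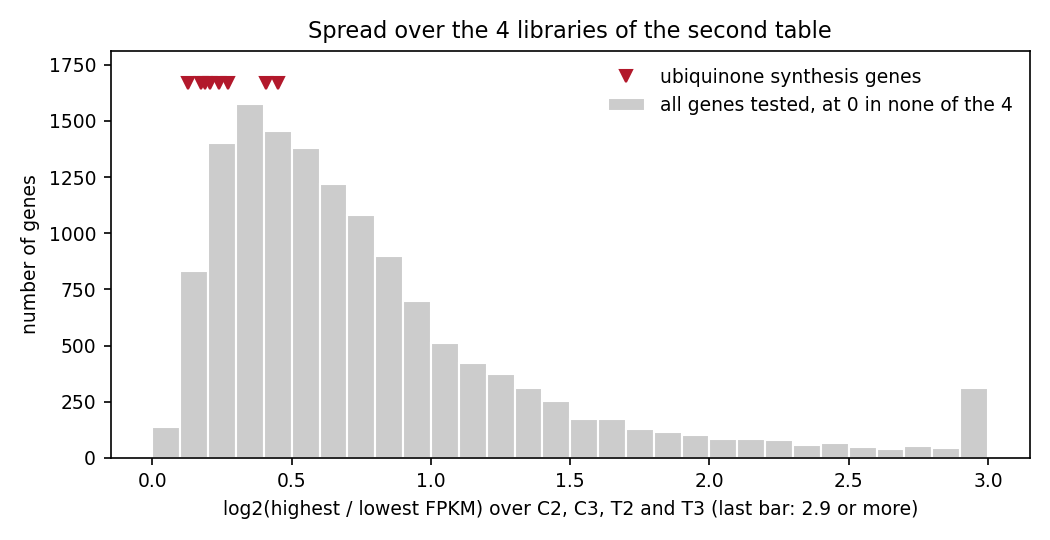
Number of genes (vertical axis) by the log2 ratio of their highest to their lowest FPKM over the 4 libraries of the second table (horizontal axis), for all genes tested that were at 0 in none of them, with the 8 ubiquinone synthesis genes as red triangles. The triangles lie at the narrow end, between ratios of 1.09 and 1.37, where the median of all genes is 1.54. The triangle of *coq-3* is for the sum of its coding and non-coding transcripts.

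Among the members, *coq-2* has 2 transcripts with distinct known roles. *C. elegans* also makes rhodoquinone, an amino-quinone that carries electrons to complex II when oxygen is low. The transcripts F57B9.4a and F57B9.4e each have 8 exons, of which exon 6 and the end of exon 8 differ. In Ensembl release 115, exon 6 of the e transcript lies at 6937600 to 6937733 on chromosome III and that of the a transcript at 6938412 to 6938545, and both are 134 bp long. Exon 8 starts at 6939260 in both and is 167 bp long in the a transcript and 198 bp in the e transcript. With the FPKM values, both transcripts are listed as ending at 6939443, so these exon 8 lengths need not apply to the FPKM. The a form is known for ubiquinone synthesis, and the e form is needed for rhodoquinone.

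Both transcripts were listed in all 6 libraries. The FPKM of the e transcript was 14.7 in C1 against 11.9 in T1, 4.32 in C2 against 5.89 in T2, and 2.36 in C3 against 5.24 in T3. That of the a transcript was 14.8 in C1 against 17.4 in T1, 6.38 in C2 against 5.19 in T2, and 6.05 in C3 against 5.93 in T3. The low sum of *coq-2* in C3 thus lay in the e transcript, which was 1.83 times as high in C2 as in C3, whereas the a transcript was 1.05 times as high. The e transcript made up 49.9% of the FPKM of the gene in C1, 40.4% in C2, and 28.1% in C3, and 40.8% in T1, 53.1% in T2, and 46.9% in T3. The share was 46.9% ± 6.20 (SD, n = 3) in VK2-treated and 39.5% ± 10.9 (SD, n = 3) in control worms. Over both tables the groups overlapped, whereas in the second table alone both VK2 libraries were above both controls, and in the first T1 was below C1. The share in T1 minus that in C1 was -9.15 percentage points, while T2 minus C2 gave 12.8 and T3 minus C3 gave 18.8. The difference of 7.47 percentage points between the means was smaller than the pooled SD of 8.89. It was between 1.79, without C3, and 12.7, without C1, when 1 library was left out. These means and SDs pool both tables with no table term, so they also carry any difference between the tables. Leaving out C1 sets T1 beside controls of the second table only. The changes within pairs given above do not have this limit. How FPKM was divided between transcripts that share most of their exons depends on the authors' software, and the number of reads over exon 6 is unknown.

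*coq-3* also had several transcripts. The coding transcripts Y57G11C.11a.1 and Y57G11C.11a.2 are in both tables, and the non-coding transcripts Y57G11C.11b and Y57G11C.11c are only in the second. There the non-coding transcripts made up 49.2% of the FPKM of *coq-3* in C2 and 63.2% in C3, against 66.7% in T2 and 58.3% in T3. The FPKM of the coding transcripts alone was 8.44 in C2 and 6.26 in C3, against 6.16 in T2 and 9.47 in T3. In these values T3 was the highest and T2 the lowest, so the VK2 libraries were no longer above both controls. With only the transcripts listed in both tables, the log2 difference of *coq-3* fell from 0.20 to 0.06. The coding transcripts of *coq-3* were also at a lower FPKM in the second table than any other member except *coq-2*, whose range of 8.42 to 11.2 they overlapped.

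**Figure D4:**
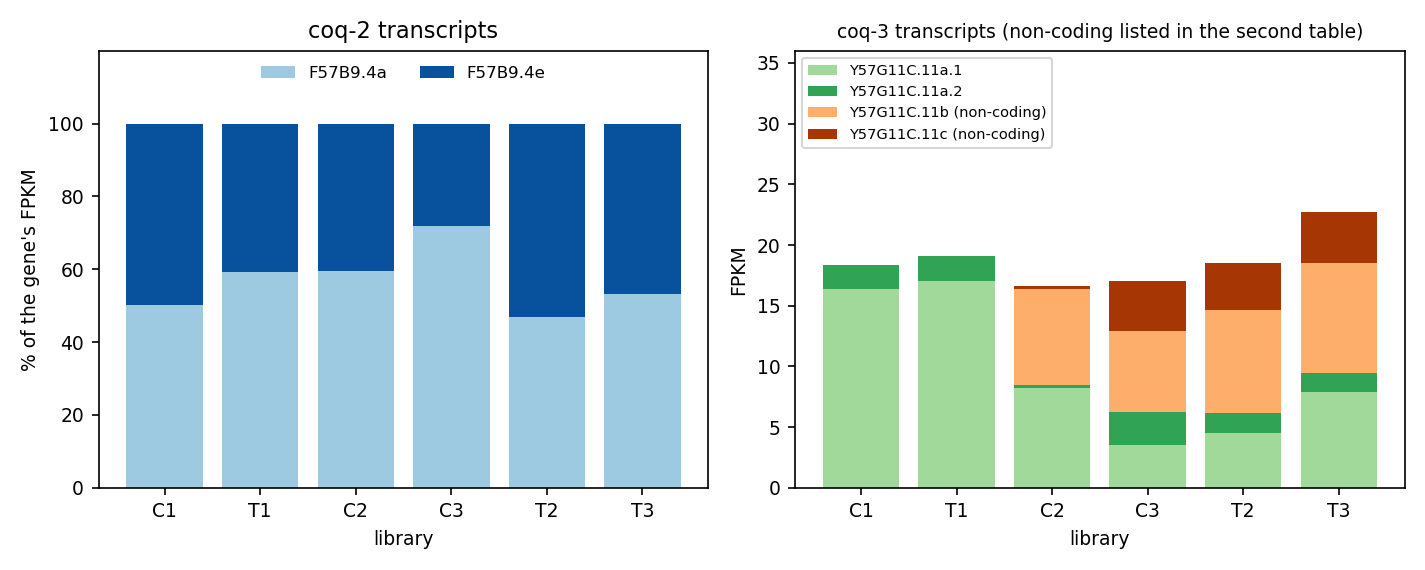
Left, share of the FPKM of *coq-2* in the transcripts F57B9.4a and F57B9.4e (vertical axis, percent) in each library, where the e transcript takes 28.1% in C3 and between 40.4% and 53.1% in the others. Right, FPKM of the transcripts of *coq-3* in each library, stacked, where the non-coding transcripts are listed only in the second table.

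The 8 genes are spread over the chromosomes, with 4 on III, 2 on I, 1 on IV, and 1 on V, but most share a feature of position. By Ensembl release 115, 6 of the 8 start within 200 bp of the end of another protein-coding gene on the same strand, as do 9.56% of 19973 nuclear protein-coding genes. The limit of 200 bp was set after the distances had been seen. In worms, genes spaced in this way are often transcribed together as an operon, but no operon annotation was used here. The distance was 91 bp from *toc-1* to *clk-1*, 104 bp from *byn-1* to *coq-2*, and 94 bp from *nuo-3*, a complex I subunit, to *coq-3*. It was 104 bp from *pgk-1*, the phosphoglycerate kinase, to *coq-4*, 90 bp from *ucp-4*, an uncoupling protein, to *coq-6*, and 0 bp from *C35D10.5* to *coq-8*. The standard errors of the log2 differences of these neighbours between VK2-treated and control worms were between 0.14 and 0.24. Their log2 difference was -0.18 for *toc-1*, -0.03 for *byn-1*, -0.26 for *nuo-3*, -0.08 for *pgk-1*, 0.01 for *ucp-4*, and 0.08 for *C35D10.5*, each with an adjusted p of 1.00 in limma. *nuo-3* was at 107 FPKM in C1 against 128 in T1, 110 in C2 against 85.5 in T2, and 88.0 in C3 against 54.4 in T3. It was thus higher with VK2 in the first pair, as *coq-3* was, and lower in the others, where the summed FPKM of *coq-3* was higher. The fitted value of *ucp-4* joins opposite changes in the second table. It was at 11.8 FPKM in C2 against 8.58 in T2, and at 6.02 in C3 against 8.55 in T3.

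The genes that supply ubiquinone synthesis also did not pass the test. These lists were chosen with earlier results of these data known, and for each list no gene had an adjusted p below 0.05 in limma. The counts by sign given for each list stand beside 7822 genes higher and 6369 lower among all genes tested. Of 6 mevalonate and isoprenoid genes tested, 2 were higher and 4 lower, with a median log2 difference of -0.03. The largest were -0.23 for *hmgs-1*, the HMG-CoA synthase, and 0.13 for *mvk-1*, the mevalonate kinase. Of 6 genes of tyrosine catabolism, through which the ring precursor tyrosine is also degraded, 3 were higher and 3 lower, with a median of -0.01. *hpd-1*, the hydroxyphenylpyruvate dioxygenase, had -0.20 and *gst-42* had 0.15. The symbols of 4 other coq genes that were looked for matched no gene in both tables.

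The kynurenine pathway, which gives the ring of rhodoquinone, had 8 genes tested, of which 4 were higher and 4 lower, with a median of -0.04. *kmo-2*, a kynurenine 3-monooxygenase, was at 1.66 FPKM in C1 against 3.401 in T1, 1.11 in C2 against 2.495 in T2, and 1.79 in C3 against 2.31 in T3. It was higher with VK2 in every pair, as were 10.8% of all genes. In the second table both VK2 libraries were above both controls, as for 11% of all genes. These levels lie close to the mean FPKM of 1 that a gene needed to be tested. Its log2 difference was 0.57 with a standard error of 0.21, an unadjusted p of 0.0278, and an adjusted p of 1.00 in limma. *haao-1*, the 3-hydroxyanthranilate dioxygenase, was lower in every pair, as were 9.32% of all genes, and its log2 difference was -0.36 with a standard error of 0.16. *kynu-1*, the kynureninase on which rhodoquinone depends in worms, was named after its values had been seen. It was at 30.0 FPKM in C1 against 33.8 in T1, 18.8 in C2 against 15.9 in T2, and 24.0 in C3 against 20.0 in T3, and a log2 difference of -0.11 (standard error 0.19).

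The enzymes that reduce or oxidise ubiquinone, and cytochrome c, which takes up electrons from complex III, were counted in the same way. Of 10 quinone reductases outside complex I, such as the subunits of complex II, 6 were higher and 4 lower, with a median of 0.02, and the largest were 0.22 for *F37C4.6* and 0.16 for *sdha-2*. Of 18 complex I genes, 5 were higher and 13 lower, with a median of -0.08, and of 13 genes of complex III and cytochrome c, 5 were higher and 8 lower, with a median of -0.07. The largest in these lists were genes of the mitochondrial genome, which differed by orders of magnitude between libraries of the same group. *ctb-1*, cytochrome b, was listed at 1109 in C1, 580 in C2, and 713 in C3, and at 0.00578 in T1, 502 in T2, and 0.00278 in T3. Its log2 difference of -6.60 (standard error 2.19) had an adjusted p of 1.00 in limma. *nduo-6* and *nduo-3* had log2 differences of -2.05 and -0.93, for which the first pair alone gave -6.16 and -3.80. In the second table, *nduo-6* was at 0 in every library but C3, where it was at 0.00166. For *nduo-3*, T2 minus C2 gave -0.36 and T3 minus C3 gave 1.37. *cyc-2.2*, which encodes a cytochrome c, had 0.38.

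Of 10 genes of mitochondrial stress and of the response to lost respiration, 4 were higher and 6 lower, with a median of -0.04. *ubl-5*, which encodes a ubiquitin-like protein of the mitochondrial unfolded protein response, was at 86.4 FPKM in C1 against 60.5 in T1, 23.4 in C2 against 18.1 in T2, and 25.1 in C3 against 18.5 in T3. It was lower with VK2 in every pair, as were 9.32% of all genes. In the second table both VK2 libraries were below both controls, as for 13.9% of all genes. The log2 difference was -0.43 (standard error 0.14), with an unadjusted p of 0.0168 and an adjusted p of 1.00 in limma. *dve-1*, a transcription regulator of the same response, had 0.29 (standard error 0.22).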

How the data were processed

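RNA-seq libraries of whole N2 worms, 3 with VK2 and 3 without, were analysed from 2 deposited tables of FPKM per transcript. The authors aligned the reads with HISAT2 2.1.0 to WBcel235 and calculated FPKM with Ballgown, and per the labels' processing notes cutadapt, StringTie, and STAR 2.5.2b were also used. The sources used here do not state a filter. The first lists no non-coding transcript and the second lists 1129. In 49 lines of the first table the leading cells were joined and were separated here. FPKM keeps no read depth, so the precision of a single library is unknown.

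FPKM was summed per gene. Genes listed in both were tested if their mean FPKM reached 1, using limma 3.58.1 in R 4.3.3 on log2(FPKM + 1), trend on and robust off, two-sided, with terms for VK2 and the table and Benjamini-Hochberg adjustment. limma was tested on simulated data. Python 3.11.15, pandas 2.3.3, and Ensembl release 115 were also used. No sequence is shown, since no sequence tables or genome were used here.

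The members, the lists, and the rules were chosen with earlier results of these data known. All 8 members were named, with the 2 largest differences of each list, the 3 genes of the most similar pattern, and neighbours on the same strand. Pairs follow the replicate numbers of the labels. After group means were removed, the r between libraries of 1 number was 0.881, 0.556, and 0.543, but in the second table libraries of different numbers had 0.613 and 0.608, so the r follows the table. The replicate block was an alternative, beside the pseudocount, the filter, scaling, leaving out the table term, only the second table, leaving out each library, trend off, robust on, and shared transcripts only.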

Additional observations from a re-analysis of the deposited data

How the results depend on the processing

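Under 19 alternatives, the adjusted p of a member in limma was never below 0.656 and no log2 difference exceeded 0.27 in size. *coq-1*, *coq-2*, *coq-3*, *coq-6*, and *coq-8* kept the sign of their difference in all of them. *clk-1* turned to 0.030 in the second table alone. Without 1 library at a time, *clk-1* took values from -0.16 to 0.030, *coq-5* from -0.078 to 0.019, and *coq-4* from -0.051 to 0.14. The median over the 8 was -0.0068 in the second table alone and ranged from -0.087 to -0.0068 with a library left out. Where C1 or T1 is left out, the comparison rests on the second table. The cause was not tested.

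The number of genes called at an adjusted p below 0.05 was 0, and 1 without T2 and 2 without C3. At an unadjusted p below 0.05, the 507 genes became 70 without the table term, 207 in the second table alone, 260 with a mean FPKM of at least 5, and between 154 and 1591 with a library left out. With the replicate block, 0 genes were called and 588 had an unadjusted p below 0.05. Among the members, the block changed no other call than that of the interval of *coq-3*. The r between C2 minus C3 and T2 minus T3 was -0.111, and with the crossed block, chosen after seeing the data, the counts were 0 and 616. The number of members with a 95% interval within 1.5 times both ways was 8, but 0 without the table term, 3 in the second table alone, and between 2 and 8 with a library left out. It was 7 with a pseudocount of 0.1, with trend off, and with either block, with *coq-3* outside. The interaction with the table called 0 genes, and 1 with a pseudocount of 5. With both tables pooled and no table term, the share of the e transcript of *coq-2* differed by 1.79 to 12.7 percentage points with a library left out.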
